A study of Mus musculus with 6 samples.

Results

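Regulators of the rostral and caudal identity of a somite were followed in mouse embryos that lack Paraxis. They are Tbx18, Uncx, Mesp1, Mesp2, Ripply1, Ripply2 and Cer1, taken by name as a list of 7 genes, and every array probe carrying one of those names was used. Of these, 5 had probes, 8 in all, and all 5 were tested among 19325 genes. Ripply1 and Ripply2 were not analysed here, because no probe could be matched to them by name, older symbol or accession.

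The samples were anterior presomitic mesoderm (PSM) dissected together with somites I to IV from embryos at embryonic day 9.5. Both genotypes, wild type (WT) and Paraxis-/-, are given as strain C57BL/6J. Paraxis is the basic helix-loop-helix factor encoded by Tcf15, which epithelial somites require. Tissue of 5 embryos was pooled, and 3 pools of each genotype were hybridised as 3 pairs on 6 two-colour Agilent arrays, each pair once in either dye orientation. Pair A joined WT pool A to Paraxis-/- pool A, pair B joined WT pool B to Paraxis-/- pool C, and pair C joined WT pool C to Paraxis-/- pool B. A pool mixes PSM with somites and rostral with caudal cells, so a lower signal can mean fewer cells of a kind or less RNA in each cell, which cannot be told apart. Pair A alone was on slide 1, so that slide and pair A cannot be told apart either.

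In the anterior PSM, Notch signalling and Tbx6 switch on Mesp2, whose protein marks the next segment border and sets the rostral compartment of the coming somite. Ripply1 and Ripply2 recruit co-repressors to T-box factors and so end the Mesp2 phase. Afterwards the T-box repressor Tbx18 keeps rostral identity and the homeobox factor Uncx keeps caudal identity, where it is needed for pedicles and proximal ribs. Mesp1 is the neighbour and close relative of Mesp2, and Cer1 encodes a secreted antagonist of Nodal and BMP ligands that is transcribed in the rostral part of newly forming somites.

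The regulatory sequences of the somite-stage pair are shown first, because Tbx18 and Uncx were the members with the lower signals. The 250 bases before the RefSeq start of each gene (GRCm38.p6) are printed 5′ to 3′ on the gene's strand, with each E box, CANNTG, in capitals. CANNTG is the general class of site for basic helix-loop-helix dimers and reads the same on both strands. The Tbx18 window is chr9:87731261-87731510 on the minus strand, and the Uncx window is chr5:139543648-139543897 on the plus strand.
Tbx18: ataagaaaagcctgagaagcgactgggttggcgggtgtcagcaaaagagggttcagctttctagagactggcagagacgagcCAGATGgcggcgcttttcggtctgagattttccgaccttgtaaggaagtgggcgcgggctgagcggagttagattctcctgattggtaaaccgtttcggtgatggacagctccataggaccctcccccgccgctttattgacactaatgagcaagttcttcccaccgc
Uncx: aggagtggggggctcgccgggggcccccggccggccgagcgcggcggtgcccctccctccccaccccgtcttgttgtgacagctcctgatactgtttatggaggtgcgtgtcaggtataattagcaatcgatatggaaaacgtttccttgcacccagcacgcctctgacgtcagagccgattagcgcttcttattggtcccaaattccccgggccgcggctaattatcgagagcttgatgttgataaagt
The Tbx18 window held 1 E box and the Uncx window 0. Mesp1, Ripply2 and Cer1 had 2 each, while Mesp2 and Ripply1 had 1 each. Of 32841 windows of the same length, 66.2% held at least 1, so these counts do not set the members apart. The T-box core site GGTGTGA, searched on both strands, was present once in the Ripply1 and once in the Ripply2 window, against 3.33% of all windows, and was in no other member's window. A letter match is a description and shows no binding.

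All values below are log2 ratios of Paraxis-/- over WT or log2 signals after normalization, and the error of a mean ratio is the standard error of limma's moderated test over 3 pairs. Tcf15 itself fell in every pair, with log2 ratios of -5.23, -5.48 and -5.52 and a mean of -5.41 (SE 0.09, n = 3 pairs, limma adjusted p = 0.00053), a signal 42.5-fold lower. Without pair B its adjusted p was 0.0872 at a ratio of -5.37. In all, 4 of 19325 genes (0.0207%) passed an adjusted p of 0.05, and 0 of the 5 measured polarity regulators were among them. By the unadjusted limma p under 0.05, Tbx18 and Uncx were lower, 2 of 5 members, against 2.73% of all genes tested. Gene spots well above background numbered 27080 to 30982 of 43379 in the WT channels and 28683 to 31795 in the Paraxis-/- channels, and every member's leading probe was well above background in all 6 measurements of both genotypes.

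Tbx18, the rostral regulator, had log2 signals of 8.59, 8.58 and 8.66 in WT pools A, B and C. In Paraxis-/- pools A, B and C its signals were 7.28, 7.73 and 7.76. All 3 Paraxis-/- pools lay below all 3 WT pools, the WT pools were tightly grouped (mean 8.61, SD 0.04), and the Paraxis-/- pools were more spread (mean 7.59, SD 0.27). The ratios were -1.31, -0.82 and -0.93 in pairs A, B and C. Their mean of -1.02 (SE 0.11, 95% interval -1.31 to -0.72, n = 3 pairs) is a signal 2.03-fold lower, with an interval of 1.65-fold to 2.49-fold. The unadjusted limma p was 0.00033 and the adjusted p 0.270, so Tbx18 did not pass the threshold across all genes. Its mean ratio was the 19th lowest of all genes tested. The size depends on the processing: with Agilent's processed signals the mean ratio of Tbx18 was -1.41 (SE 0.17), below the interval given above. Of 17 alternative settings, 4 took Tbx18 past the threshold and 2 took Uncx past it. For Tbx18 these were scaling between arrays, no replicate block, the pair as a random block and the slide as a block. For Uncx they were no replicate block and the pair as a random block. All but scaling change the model fitted rather than the signals, and no replicate block counts dye swaps as replicates. Paraxis-/- pools all below the WT pools occurred for 2.88% of genes with all 3 pairs, and Tbx18 was the 1 member that showed it by its leading probe.

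Uncx, the caudal regulator, had signals of 8.97, 9.99 and 10.002 in WT pools A, B and C, and of 8.34, 9.08 and 9.19 in Paraxis-/- pools A, B and C. WT pool A lay below Paraxis-/- pools B and C, so the pools of the genotypes overlapped, but within each pair the Paraxis-/- pool was lower. The ratios were -0.63, -0.80 and -0.92. The mean of -0.78 (SE 0.08, 95% interval -0.999 to -0.56, n = 3 pairs) is a signal 1.72-fold lower, with an interval of 1.48-fold to 1.999-fold. The unadjusted limma p was 0.00027 and the adjusted p 0.246. Uncx therefore also missed the threshold, with the 36th lowest mean ratio of all genes.

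**Figure D1:**
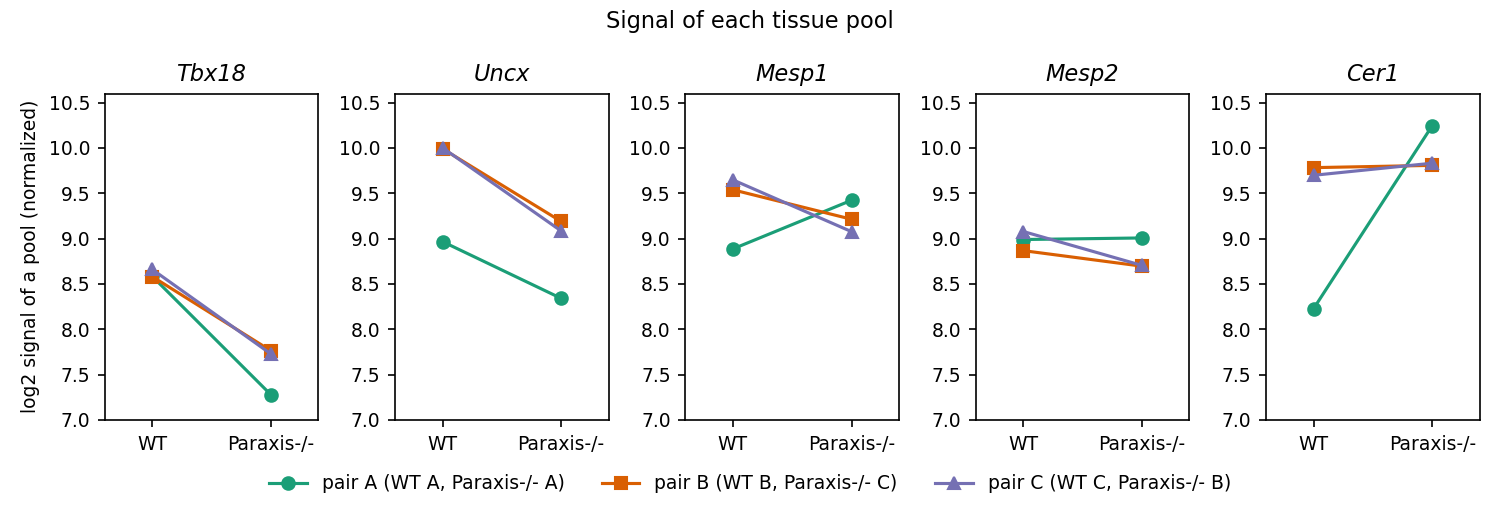
Normalized log2 signal of each tissue pool, WT on the left and Paraxis-/- on the right of each panel, with a line joining the pools hybridised together; each gene is drawn from its leading probe, and heights are not comparable between genes. Every line slopes down for Tbx18 (WT 8.58 to 8.66, Paraxis-/- 7.28 to 7.76) and for Uncx, while for Cer1 the slope is steep only in pair A.

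A ratio at least 1.5-fold lower in all 3 pairs was found for Tbx18 and Uncx by their leading probes and for 0.119% of genes (23 of 19251 with all 3 pairs). Lower in all 3 pairs at any size were 12.2% of genes, and again Tbx18 and Uncx of the members. By their leading probes, the rostral and the caudal regulator had nearly the same ratio on slide 2 and differed on slide 1. The ratio of Tbx18 minus that of Uncx was -0.68 for pair A, -0.02 for pair B and -0.01 for pair C, with a mean of -0.24 (SD 0.38, n = 3; exact two-sided sign-flip test, p = 0.25, the smallest 3 pairs can give). The difference was -0.02 without pair A, -0.08 with the mean of all probes of each gene (exact sign-flip p = 0.75) and -0.52 with Agilent's processed signals (exact sign-flip p = 0.25). Without pair A, the mean ratios were -0.87 for Tbx18 (limma adjusted p = 0.167) and -0.86 for Uncx (limma adjusted p = 0.176).

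The 2 probes of Tbx18 and the 2 of Uncx showed the same direction, although neither second probe was 1.5-fold lower in all 3 pairs. The second Tbx18 probe, nearer the 5′ end of the transcript, gave ratios of -0.86, -0.46 and -0.54 (mean -0.62, SE 0.10, n = 3; limma adjusted p over all probes = 0.467). Its signals were 7.22, 7.13 and 7.34 in the WT pools and 6.36, 6.80 and 6.67 in the Paraxis-/- pools, again without overlap. It was well above background in 4 of 6 Paraxis-/- measurements and 6 of 6 WT measurements, so its ratio is near the lower limit of measurement. In the mm9 build of the file headers the Tbx18 probes lie at chr9:87599514-87599573 (leading) and chr9:87599751-87599810, both on the minus strand.

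The second Uncx probe starts at base 399 of the transcript, far upstream of the leading probe at base 2037, and is shown because it differs in place and base composition from its partner.
Uncx: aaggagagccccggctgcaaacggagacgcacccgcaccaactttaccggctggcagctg
Its 60 bases are 65% G or C, against 21.7% for the leading probe. It gave signals of 9.09, 8.96 and 8.78 in the WT pools and 8.15, 8.38 and 8.22 in the Paraxis-/- pools, which did not overlap. The ratios were -0.94, -0.74 and -0.40 (mean -0.69, SE 0.12, n = 3; limma adjusted p over all probes = 0.512). Pair A was thus the most reduced by the upstream probe and the least reduced by the leading probe, and pair C the reverse. The leading probe's WT pool A stood below WT pools B and C, whereas by the upstream probe WT pool A was the highest. The Uncx probes lie at mm9 chr5:140024077-140024136 (leading) and chr5:140020426-140020485, on the plus strand.

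**Figure D2:**
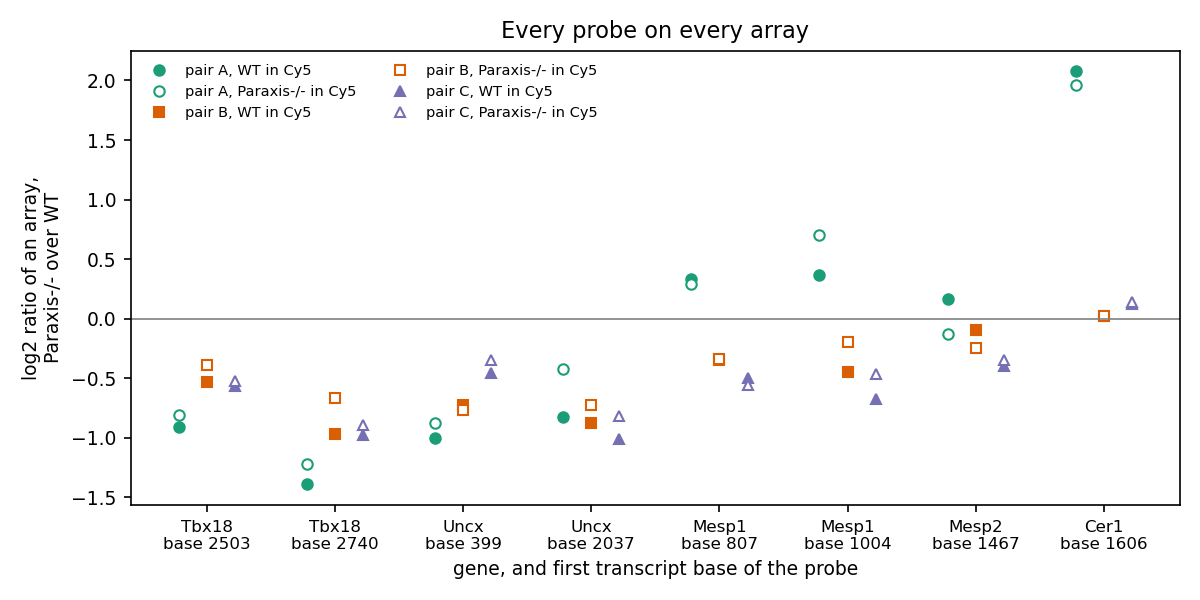
Log2 ratio of Paraxis-/- over WT on each of the 6 arrays for all 8 probes of the 5 measured regulators, named by gene and first transcript base; symbols give the pair and filling gives the dye orientation. Every array value of the 4 Tbx18 and Uncx probes is below 0; the leading Uncx probe in pair A gave -0.83 and -0.42 in the 2 dye orientations.

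Mesp1 and Mesp2, the bHLH factors of the forming segment, had mean ratios nearer to 0 than Tbx18 and Uncx. Mesp2 had signals of 8.99, 8.87 and 9.08 in WT pools A, B and C and of 9.01, 8.70 and 8.70 in Paraxis-/- pools A, B and C. Paraxis-/- pool A lay within the WT range and the other two just under it. The ratios were 0.02, -0.17 and -0.37, a mean of -0.18 (SE 0.10, 95% interval -0.43 to 0.07, n = 3; limma adjusted p = 0.950). That interval does not reach the mean ratio of Tbx18 or of Uncx. Pair by pair, Uncx was below Mesp2 by similar steps, -0.64, -0.63 and -0.54 (mean -0.61, SD 0.05; exact sign-flip p = 0.25), and Tbx18 was below Mesp2 by -1.32, -0.65 and -0.56 (mean -0.84, SD 0.42; exact sign-flip p = 0.25). These differences were computed after the single ratios were known.

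Mesp1 had signals of 8.89, 9.54 and 9.65 in the WT pools and 9.42, 9.08 and 9.21 in the Paraxis-/- pools. WT pool A was the lowest of the 6 and its partner was among the middle values, so pair A ran opposite to pairs B and C. The ratios were 0.54, -0.32 and -0.57, a mean of -0.12 (SE 0.22, 95% interval -0.70 to 0.46, n = 3; limma adjusted p = 0.983). Its second probe gave 0.31, -0.34 and -0.53 (mean -0.18, SE 0.17), the same order of pairs. The spread of Mesp1 between pairs was larger than that of 97.7% of genes. Without pair A its mean was -0.45 (limma adjusted p = 0.601). Without pair C it was 0.11. The Mesp1 probes lie at mm9 chr7:86937140-86937199 and chr7:86937337-86937396 on the minus strand, and the Mesp2 probe at chr7:86957849-86957908 on the plus strand.

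Cer1, the secreted antagonist, had signals of 8.23, 9.78 and 9.70 in the WT pools and 10.25, 9.83 and 9.81 in the Paraxis-/- pools. All 3 Paraxis-/- pools were above all 3 WT pools, as for 3.10% of genes, but 5 of the 6 pools lay between 9.70 and 10.25 and WT pool A stood well below them. The ratios were 2.02, 0.03 and 0.13, a mean of 0.73 (SE 0.42, 95% interval -0.36 to 1.81, n = 3; limma adjusted p = 0.950). The spread between pairs was larger than that of 99.7% of genes, and without pair A the mean was 0.08. With the slide as a block, which gives pair A the weight of pairs B and C together, it was 1.05. Pair A, alone on slide 1, is then fitted exactly. The residual spread of that fit is the one between pairs B and C, so its error leaves out how far pair A stood from them. Both arrays of pair A showed the high ratio, so exchanging the dyes did not alter it. The probe lies at mm9 chr4:82527731-82527790 on the minus strand.

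**Figure D3:**
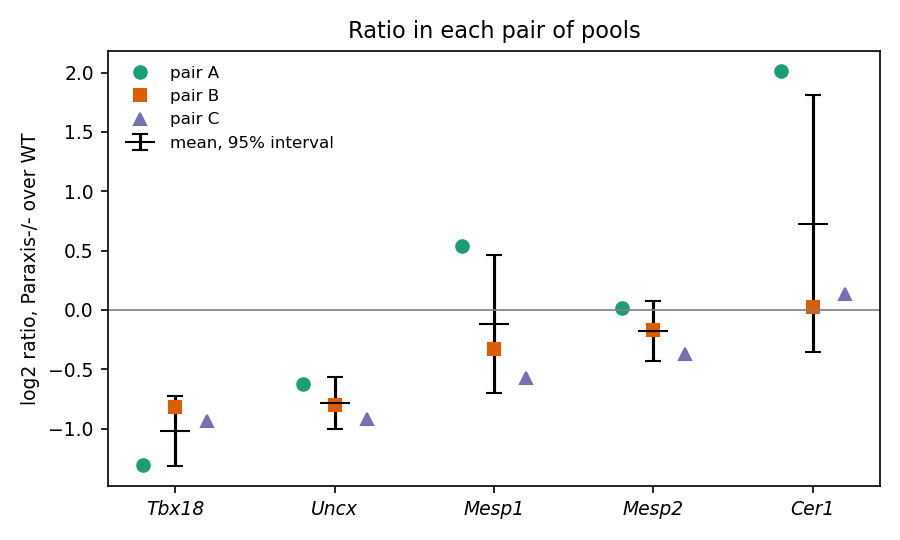
Log2 ratio of Paraxis-/- over WT in each of the 3 pairs (symbols) with the mean and its 95% interval from limma (bar), for the 5 measured regulators. The intervals of Tbx18 (-1.31 to -0.72) and Uncx (-0.999 to -0.56) lie below 0, and those of Mesp1, Mesp2 and Cer1 include 0.

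The low Cer1 and Mesp1 signals of WT pool A came with lower sums of PSM, of surface ectoderm and of notochord and gut markers in the same pool. Tbx6, the T-box factor of the PSM, had a signal of 10.03 in WT pool A and of 12.69 and 12.68 in WT pools B and C, with 12.46, 12.90 and 12.10 in the Paraxis-/- pools. Its ratios were 2.43, -0.59 and 0.22. Dll3, a Notch ligand family member of the PSM, had ratios of 1.62, -0.19 and 0.06, and T, the tailbud T-box factor, had 1.44, -0.34 and 0.39. The 7 PSM markers (T, Tbx6, Msgn1, Hes7, Dll1, Dll3 and Lfng) had median ratios of 0.66, -0.19 and 0.06 in pairs A, B and C, and 0 of 7 passed the adjusted threshold in limma (1 of 7 had an unadjusted p under 0.05, higher, against 2.34% of all genes tested). Tbx6, Dll1 and Dll3 were the brightest of the 7 (12.69, 12.67 and 12.40 in WT pool B) and weigh most in a summed linear signal. The sum of the 7 was 8096 in WT pool A against 19700 and 19910 in the other WT pools, and 15170 to 21750 in the Paraxis-/- pools. Not every PSM marker was low there: Lfng had signals of 8.68, 8.61 and 8.49 in WT pools A, B and C, and Msgn1 had 7.22, 7.28 and 7.26. The 6 surface ectoderm markers summed to 18210 in WT pool A against 28100 and 30000 in WT pools B and C, with median ratios of 0.73, 0.03 and 0.11 in pairs A, B and C. The notochord and gut markers summed to 5037 in WT pool A against 7119 and 6706. Their median ratios were 0.39, 0.01 and 0.37, so pair C was also high. Lateral plate markers differed less, at 1260 against 1303 and 1379. Primitive blood markers summed highest in WT pool A, at 161800 against 94750 and 158200. The summed signal of the 6 neural tube markers was highest in WT pool A, at 14450 against 9364 and 9185. Their pair A ratios ranged from -2.12 for Dbx1 to 0.06 for Sox1. The somite markers named below also summed highest in WT pool A, at 73460 against 63900 and 60670 in WT pools B and C. The part of these differences in the Cer1 and Mesp1 ratios was not tested.

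**Figure D4:**
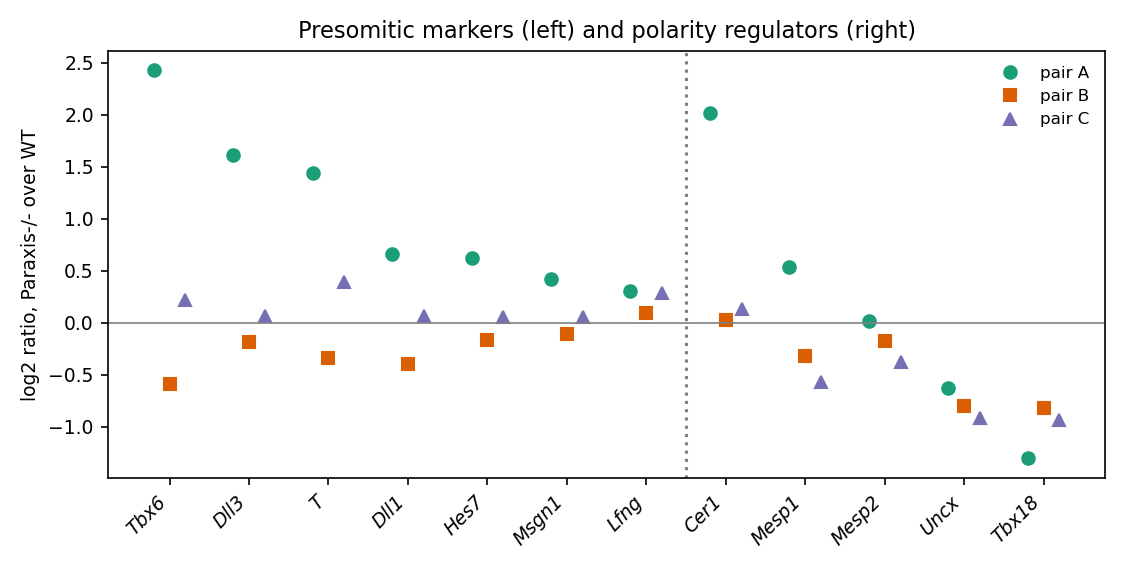
Log2 ratio of Paraxis-/- over WT in each pair for 7 PSM markers (left of the dotted line) and the 5 measured polarity regulators (right). Pair A stands high for Tbx6 (2.43), Dll3 (1.62) and Cer1 (2.02). For Tbx18 pair A has the lowest ratio (-1.31). For Uncx, drawn from its leading probe, pair A has the highest ratio (-0.63), though below 0.

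Somite markers and PSM markers, 8 and 7 genes, were well above background in all 6 measurements of both genotypes. Of all genes tested, 0.0207% passed the adjusted limma threshold. At an unadjusted limma p under 0.05, 2.73% were lower and 2.34% higher. Of the somite markers (Meox1, Meox2, Pax3, Foxc1, Foxc2, Aldh1a2, Pax1 and Pax9), 1 fell by the adjusted limma p and 5 were lower at an unadjusted p under 0.05. Their median ratio was -0.50, and it was -0.88, -0.48 and -0.34 in pairs A, B and C. Meox1, a homeobox gene of the whole somite, had a ratio of 0.24. The summed somite signal was 60670 to 73460 in the WT pools and 47120 to 64830 in the Paraxis-/- pools. Primitive blood markers summed to 94750 to 161800 in WT and 160500 to 242900 in Paraxis-/- pools (0 of 9 past the adjusted threshold in limma, 4 higher at an unadjusted p under 0.05). Surface ectoderm markers summed to 29140 to 36050 in the Paraxis-/- pools (0 of 6 past the adjusted threshold, 1 higher at an unadjusted p). Median ratios were -0.08 for 6 endothelial markers (4 below 0), 0.09 for 6 neural tube markers (1 below 0), 0.09 for 6 lateral plate markers (1 below 0) and 0.22 for 5 notochord and gut markers (0 below 0). In limma 0 of these passed the adjusted threshold, and 1 endothelial, 1 lateral plate and 1 notochord and gut marker were higher at an unadjusted p under 0.05. The background correction adds an offset of 50, so no signal can be 0. A signal alone does not show that a cell type was present. The part of other cell types in the Tbx18 and Uncx ratios was not tested.

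In 4 lists of genes from the same patterning steps, no gene passed the adjusted threshold. The shares over all genes tested were 2.73% lower and 2.34% higher at an unadjusted limma p under 0.05. Of 9 tested genes of the rostral compartment, 0 passed the adjusted limma threshold, 1 was higher at an unadjusted p under 0.05, and the median ratio was 0.09, against 0.00 for all genes tested. The 4 with the smallest p were Lfng (0.23), a glycosyltransferase that modifies Notch, the Eph receptor Epha4 (-0.20), the FGF receptor Fgfr1 (0.18) and the T-box gene Tbx22 (0.12). Of 10 genes of the caudal compartment, 0 passed, 1 was lower and 1 higher at an unadjusted p under 0.05, and the median was 0.11. Their leading genes included the semaphorin Sema3f (-0.34), the ephrin Efnb1 (0.25) and the matrix gene Spon1 (0.38). The medians of both lists were above 0, while the ratios of Tbx18 and Uncx were below it. In pairs A, B and C the rostral median was 0.11, -0.03 and 0.06, and the caudal median 0.01, 0.10 and 0.05. Lfng and Dll3 of the rostral list and Dll1 of the caudal list are also among the PSM markers above. Papss2, of the rostral list, did not pass the filter on dim probes.

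Among 12 tested inputs to Mesp2, which hold Notch receptors, their cofactors and upstream factors, 0 passed, and the median was 0.01. At an unadjusted limma p under 0.05, 1 was lower. Among all genes tested, 2.73% were lower and 2.34% higher at that p. Foxc1 (-0.28) and Foxc2 (-0.24), forkhead factors of paraxial mesoderm, led the list, followed by the receptor Notch2 (0.13) and the ligand Wnt3a (0.15). Among 10 tested genes downstream of Mesp or acting as co-repressors with Ripply, 0 passed in limma, 0 had an unadjusted p under 0.05, and the median was 0.02. The Groucho-type co-repressors led it, Tle2 at 0.16, Tle1 at -0.21, Tle6 at 0.25 and Tle4 at 0.19.

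Around Cer1, 12 secreted antagonists and their ligands were tested. In limma 0 passed, and the median was 0.07. At an unadjusted limma p under 0.05, 1 was lower and 3 were higher, against 2.73% and 2.34% of all genes tested. Nbl1, an antagonist of the same family as Cer1, had ratios of 0.54, 0.61 and 0.62 (mean 0.59, SE 0.07, limma adjusted p = 0.270). Unlike Cer1, it was similar in the 3 pairs. Fst, which binds activin, had ratios of -0.90, -0.79 and -0.36 (mean -0.68), while the ligand Bmp7 (0.34) and the antagonist Grem1 (0.38) were higher in all 3 pairs.

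Of 13 partners and relatives of Tbx18 and Uncx, 1 fell by the adjusted limma p, 4 were lower at an unadjusted p under 0.05, and the median was -0.09. Among all genes tested, 0.0207% passed the adjusted threshold and 2.73% were lower at an unadjusted limma p under 0.05. Pax1, a paired-box gene of the sclerotome, fell to a ratio of -4.35 (SE 0.13, n = 3; limma adjusted p = 0.0046), with -4.69, -4.18 and -4.19 in pairs A, B and C. Without pair B, 0 genes passed in limma, Pax1 included (728 genes then had an unadjusted p under 0.05). Meox2, a somite homeobox gene, had -1.997, -1.535 and -1.25 (mean -1.60, limma adjusted p = 0.186). Pax3, the dermomyotome paired-box gene, had a mean of -0.49, and the T-box gene Tbx2 -0.32. The Tbx18 and Uncx ratios therefore lay between those of Pax1 and Meox2 and those of Pax3 and Tbx2.

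**Figure D5:**
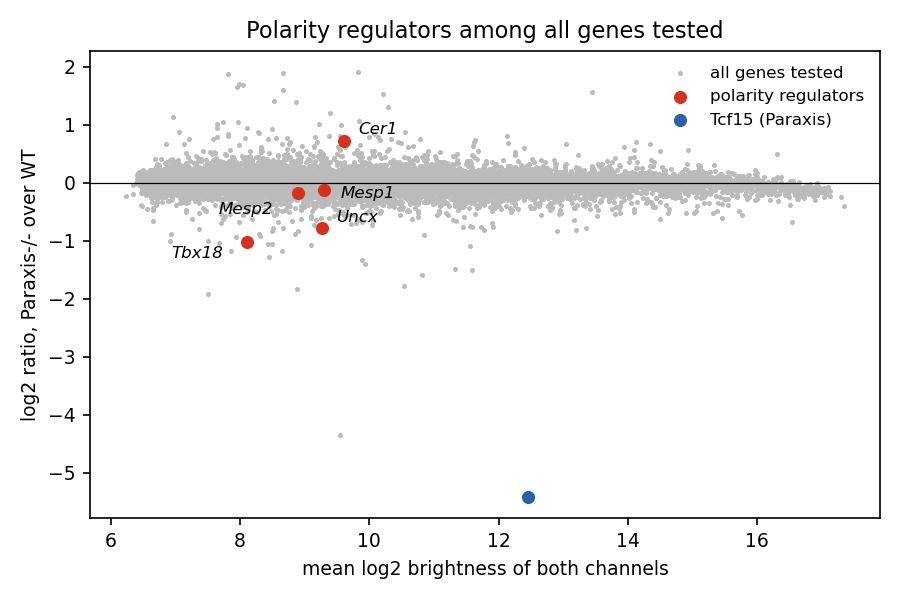
Mean log2 ratio of Paraxis-/- over WT (vertical) against mean log2 brightness (horizontal) of all 19325 genes tested, with the 5 measured polarity regulators and Tcf15 marked. Tbx18 (-1.02) and Uncx (-0.78) lie below the main cloud, Cer1 (0.73) above it, and Mesp1 and Mesp2 within it.

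Genes whose ratios over the 6 arrays were nearest to those of each somite-stage regulator were found by Euclidean distance among 14840 genes with a symbol. Among the nearest to Tbx18 were Adam18 (distance 0.44), a member of the ADAM family, and Ebf2 (0.48), a helix-loop-helix transcription factor. Nearest to Uncx were Mgp (0.41), an inhibitor of calcification, Zfp185 (0.54) and Spag6 (0.57). Tbx18 ranked 21st among the genes nearest to Uncx, and Uncx 19th among those nearest to Tbx18, at a distance of 0.98. Euclidean distance depends on the size of the ratios, so genes lowered by similar amounts lie close by it. These likenesses describe the same 6 arrays and were not tested.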

How the data were processed

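RNA of 3 WT and 3 Paraxis-/- pools was compared on 6 two-colour arrays. Per the labels, 5 embryos made a pool, and 250 ng of RNA with an integrity number of at least 7.9 was labelled with Cy3 or Cy5. Spot intensity was read by the authors with Agilent Feature Extraction, version 10.7.3.1 on slide 1 and 10.5.1.1 on slide 2 per the file headers, though 8.5.1.1 per the submitters' processing notes. In the deposited value matrix each array has a log10 ratio, Cy5 over Cy3, equal to the scanner files' ratio within 5e-11 and with a median of 0 on each array.

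Median intensities were corrected with normexp (offset 50) and loess in limma 3.58.1 under R 4.3.3 (data.table, version 1.17.8, for reading), leaving out control and outlier spots. Ratios were turned to Paraxis-/- over WT through the labelled dyes, and dye-swapped arrays were averaged into 3 pairs. Levels of pools were taken after loess and Aquantile scaling. Probes well above background in at least 4 of 6 measurements of either genotype were kept (28639 of 41174), the brightest standing for its gene; 74 of 19325 genes had fewer than 3 pairs. The pairs were fitted by lmFit and eBayes and tested two-sided against 0, with p adjusted by Benjamini-Hochberg over all genes and a threshold of 0.05. The number of arrays limits the precision.

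For 2 arrays the titles name other pools than the descriptions do; the titles were followed. Array ratios, taken across genes, correlated at 0.20 to 0.51 within the pairs of the titles and at -0.17 to -0.11 within the pairs that the descriptions alone give; arrays that neither pairs ranged from -0.13 to 0.35 (10 combinations). Names were matched to a RefSeq listing by accession (26690 probes), symbol (5189) or synonym (952), and 8343 kept the file's name. Promoters are RefSeq's (GRCm38.p6). Probe coordinates are in mm9, where exons and untranslated regions were not annotated here. The fit was tested on simulated data. The members and lists were chosen with earlier results of these data known. Named were all members with every probe, Tcf15, the 4 genes of each pathway list with the smallest p, and the 3 nearest genes of Tbx18 and Uncx; 2 genes that this rule takes are not reported here, and the marker genes given beside Cer1 and Mesp1 were picked after their values were seen. Alternatives covered background correction, normalization, filters, choice of probe, pairing, slide and each pair left out.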

Additional observations from a re-analysis of the deposited data

How the results depend on the processing

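Of 17 alternatives, slide 2 alone is the same fit as leaving out pair A, and the deposited ratios repeat Agilent's processed signals. Tbx18 stayed negative under all of them (-1.41 to -0.82), as did Uncx (-0.90 to -0.71) and Mesp2 (-0.27 to -0.08), and Cer1 stayed positive (0.08 to 1.08). By limma's adjusted p, Tbx18 passed under 4 and Uncx under 2. Scaling between arrays gave Tbx18 -1.004 (adjusted p = 0.0358) and 18 genes past the threshold (4 higher, 14 lower) in place of 4. The pairing comes from the pools that share arrays in the titles. With no replicate block, the 6 arrays counted singly, 68 genes passed (29 higher, 39 lower), Tbx18 at -1.02 (adjusted p = 0.0081) and Uncx at -0.78 (adjusted p = 0.0070); this counts dye swaps of the same pools as replicates. With the pair as a random block, 40 passed (13 higher, 27 lower), Tbx18 at -1.02 (adjusted p = 0.0135) and Uncx at -0.78 (adjusted p = 0.0196). With the slide as a block, which weights both slides equally, 76 passed (39 higher, 37 lower), Tbx18 at -1.09 (adjusted p = 0.0214) and Cer1 at 1.05 (adjusted p = 0.0235), and Mesp1 turned to 0.0444. In the fit with the slide as a block, pair A is alone on slide 1 and is fitted exactly. Its residual spread is that between pairs B and C, so its p-values leave out the distance of pair A from them. Slide 2 alone gave 2 genes. Leaving out 1 pair gave 0 to 2 genes: 2 without pair A, 0 without pair B (limma; 728 at an unadjusted p under 0.05, against 979 with all pairs) and 2 without pair C. Mesp1 then ranged from -0.45 without pair A to 0.11 without pair C. The causes of these shifts were not tested, beyond the fewer pairs.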
